A study of Mus musculus with 16 samples.

Results

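B cells of the bone marrow (BM) that carried transcript of Ighd, the constant gene of the delta heavy chain, numbered 659 of 31191 cells that passed the cell filters in 6 single-cell RNA libraries. A cell counted as one of them when it had 201 to 5999 detected genes, at most 10% of its unique molecular identifiers (UMIs, the counted RNA molecules) on mitochondrial genes, at least 3 UMIs of Cd79a and Cd79b together, and at least 1 UMI of Ighd. Cd79a and Cd79b encode the signalling pair of the B cell receptor. The cells were thus chosen by the measured UMIs of these 3 genes, which are given below as description only.

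The libraries were made to follow marrow cells in mice bearing 2208L tumors, a transplanted Trp53-null model of triple-negative mammary cancer in female BALB/c mice, under IACS-70654, an oral inhibitor of the bromodomains of the coactivators CBP and P300. Cells sorted as CD45+ and Ter119-, alive by DAPI exclusion, came from WT mice without tumors (labelled ctrl), from tumor-bearing mice given vehicle and from tumor-bearing mice given IACS-70654 on a 3-on/2-off schedule, described as 7 days of treatment in the series record and as a slightly shorter course in the account of the experiment. Each group had 2 libraries, and cells of 3 mice were pooled, so no value belongs to a single animal. The series holds 16 libraries in all, and the others were not analysed here. The sources do not say whether the 2 libraries of a group came from separate pools of mice, so p-values below measure only the spread between these libraries. Tumor, vehicle dosing and time in the tumor-bearing host differ together between WT and vehicle, and their contributions cannot be told apart.

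B cells are made in the marrow from precursors that rearrange the heavy chain genes with RAG1 and RAG2, divide, and then rearrange a light chain. An immature B cell first shows IgM at its surface. Splicing of the same long transcript to the delta constant exons adds IgD as the cell matures, so Ighd transcript appears late in this sequence, and a mature B cell that recirculates from blood to marrow carries both. Immature cells keep Cd93 and the surrogate light chain family gene Vpreb3, whereas mature cells gain the complement receptor Cr2, the IgE receptor Fcer2a and the chemoattractant receptors Gpr183 and Cxcr5. MHC class II proteins, with which B cells show antigen to T cells, are also at their highest in mature cells.

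The label was checked with 7 B cell genes that the rule did not use (Ms4a1, Cd22, Pax5, Ebf1, Cd74, Ighm and Igkc). All 7 were detected in the member cells of every library, and their summed level ranged from 11974 to 14991 CPM (UMIs of a gene relative to all UMIs of the summed cells). Markers of the other cells the sort could hold were lower for most types. T or NK cell markers summed to 12.5 to 44.9 CPM with Trac at 0 throughout, erythroid markers to 0 to 5.96 CPM, plasma cell markers to 5.04 to 33.2 CPM and plasmacytoid dendritic cell markers to 0 to 47.7 CPM. The 10 neutrophil markers were all present and summed to 26943 to 58606 CPM. Their median share of a member cell's UMIs was 1.07% to 1.31%, and 59 of the 659 cells exceeded 5%. S100a8, a neutrophil gene, had a UMI in at least 94.5% of member cells of every library even at 1000 UMIs per cell.

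Depth did not separate WT from vehicle among the member cells. Median UMIs per member cell were 3150 and 3115 in WT, 3946 and 3140 in vehicle, and 4285 and 3746 under IACS-70654. The libraries held 27816638 to 54510172 UMIs in all, and no barcode was shared between libraries. Samples were tagged with CellPlex multiplexing oligos and demultiplexed, and the sources do not say whether they were captured separately. The spread between libraries may therefore hold no variation of capture. Summed over member cells, the WT libraries held 1109019 and 943492 UMIs of tested genes, the vehicle libraries 155554 and 225728, and the IACS-70654 libraries 185141 and 395306, so vehicle values rest on the fewest molecules.

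Most member cells sat close to the Ighd threshold in WT and vehicle. Exactly 1 Ighd UMI was found in 130 of 250 and 120 of 225 member cells of the WT libraries, in 26 of 35 and 25 of 43 of the vehicle libraries, and in 7 of 33 and 19 of 73 of the IACS-70654 libraries. The median Ighd count was 1 in all WT and vehicle libraries, and 3 and 2 under IACS-70654. Just outside the rule, 438 and 473 cells of WT, 130 and 136 of vehicle, and 26 and 39 of IACS-70654 libraries had at least 3 Cd79a and Cd79b UMIs and no Ighd. At the other edge, 1 to 9 member cells per library had exactly 3 UMIs of Cd79a and Cd79b, and 1 to 7 cells with Ighd had exactly 2. Among cells without any Cd79a or Cd79b UMI, 0.392% to 0.771% carried an Ighd UMI. Because a cell with a few Ighd molecules can miss the rule by sampling, B-lineage cells without Ighd are cells without a detected Ighd UMI.

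B cells with Ighd made up a far smaller share of the marrow in both tumor-bearing groups than in WT. Under IACS-70654 they were more than the cells that met the Cd79a and Cd79b threshold without an Ighd UMI. In the WT libraries they were 5.46% (95% exact binomial interval 4.82% to 6.16%) and 5.12% (4.49% to 5.81%) of kept cells. In the vehicle libraries the share was 0.685% (0.477% to 0.951%) and 0.706% (0.512% to 0.950%). Under IACS-70654 it was 0.678% (0.467% to 0.951%) and 1.19% (0.931% to 1.49%). The group means were 5.29% ± 0.240, 0.696% ± 0.0154 and 0.932% ± 0.359 (SD, n = 2 each), which puts vehicle at 0.131 times and IACS-70654 at 0.176 times WT. Both tumor-bearing groups lay below WT without overlap, whereas the IACS-70654 and vehicle libraries overlapped (exact 2-sided permutation test, p = 1). With 2 libraries against 2 the smallest p that this test allows is 0.333, and every pair of groups that did not overlap reached it (adjusted p = 0.364 over 12 comparisons of shares). The intervals cover counting error only. The overlap of the IACS-70654 and vehicle libraries depended on the Ighd threshold. Cells with at least 2 Ighd UMIs were 26 of 4865 and 54 of 6154 kept cells under IACS-70654. In vehicle they were 9 of 5112 and 18 of 6087, without overlap, and in WT 120 of 4579 and 105 of 4394. These counts are of cells at full depth, which differed between libraries. When the member rule was applied to cells randomly thinned to equal depth, it kept 7 and 12 cells in vehicle and 9 in IACS-70654 replicate 1. Of the same kept cells, the share in that library then lay between those of the vehicle libraries. The part of depth in the separation at 2 Ighd UMIs was not tested.

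Set against all B-lineage cells, the order of the groups was different. Kept cells of WT belonged to the B-lineage as a whole in 15.0% and 15.9%, those of vehicle in 3.23% and 2.94%, and those of IACS-70654 in 1.21% and 1.82%. Of these cells, the share with Ighd was 36.3% and 32.2% in WT, 21.2% and 24.0% in vehicle, and 55.9% and 65.2% under IACS-70654 (means 34.3% ± 2.90, 22.6% ± 1.99 and 60.6% ± 6.54, SD, n = 2). No library of 1 group overlapped with another. WT libraries held 9.57% and 10.8% of B-lineage cells without Ighd among kept cells, vehicle libraries 2.54% and 2.23%, and IACS-70654 libraries 0.534% and 0.634%, a ratio of the means of 0.245 for IACS-70654 to vehicle. The corresponding ratio for cells with Ighd was 1.34. The median depth of the 26 and 39 cells without Ighd under IACS-70654 was 12800 and 8422 UMIs, Prtn3, a granule protease of myeloid precursors, stood at 4350 and 5223 CPM, and at 1000 UMIs per cell Vpreb1, Vpreb3 or Igll1 was found in 38.5% and 33.3% of them, against 76.2% and 80.7% in vehicle and 86.0% and 83.9% in WT. The part of such cells in the shares of B-lineage cells was not tested. In these sums a lower share of one cell type and a higher share of another cannot be told apart, since all shares add up to the whole sort.

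**Figure D1:**
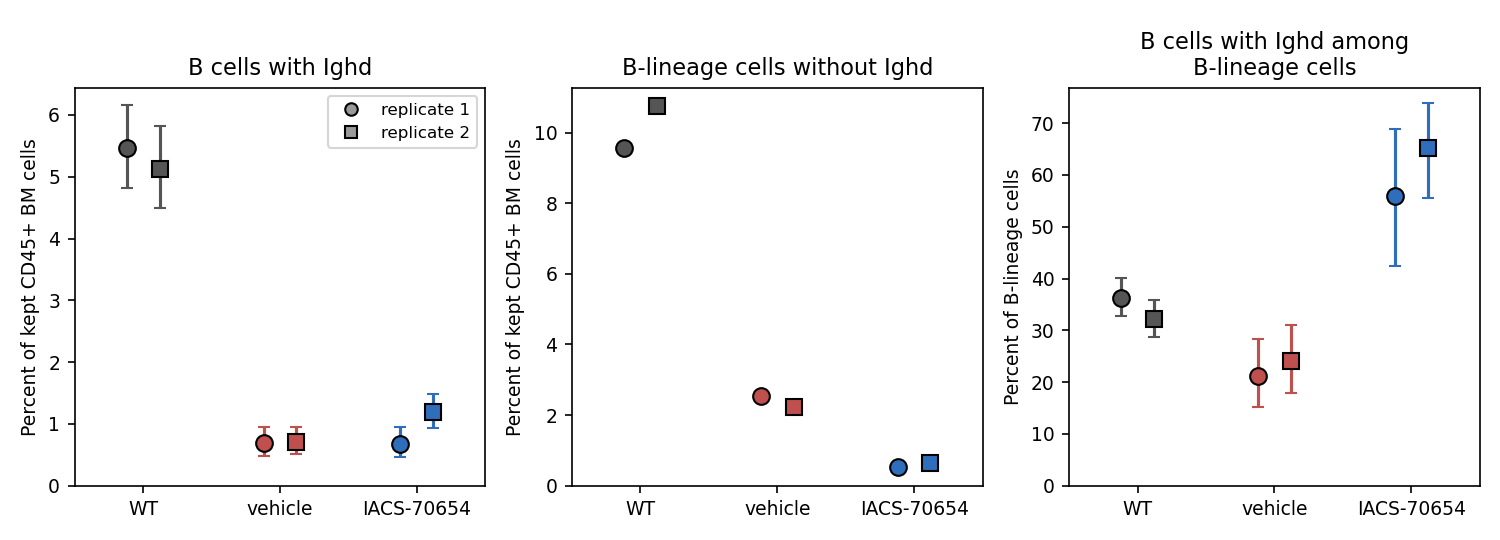
B cells with Ighd as a percent of kept cells, B-lineage cells without Ighd as a percent of kept cells, and B cells with Ighd as a percent of B-lineage cells, for each of the 6 libraries. Points are libraries, and bars where drawn are 95% exact binomial intervals (the middle panel has none). WT stands above both tumor-bearing groups in the first panel, and IACS-70654 stands above both other groups in the last, at 55.9% and 65.2%.

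The state of the member cells was read from genes that the rule did not use, after each cell was thinned to 1000 UMIs so that groups were compared at 1 depth. Vehicle cells carried immature markers more often and mature markers less often than WT, and IACS-70654 cells the reverse. Vpreb3 was detected in 53.4% and 53.8% of member cells in WT, in 71.4% and 76.7% in vehicle, and in 12.1% and 21.9% under IACS-70654 (means 53.6% ± 0.257, 74.1% ± 3.76 and 17.0% ± 6.93). Fcer2a or Cr2, the CD23 and CD21 receptors of mature B cells, was detected in 21.3% and 22.2% of WT cells, 5.71% and 6.98% of vehicle cells, and 30.3% and 27.4% of IACS-70654 cells (21.8% ± 0.663, 6.35% ± 0.893 and 28.9% ± 2.05). None of the 3 groups overlapped with another for either measure. With 2 libraries against 2, absence of overlap was common over the features compared. The neutrophil gene S100a8 also separated vehicle (mean 97.4%) from WT (96.4%) and from IACS-70654 (95.7%), while WT and IACS-70654 overlapped for it. The vehicle values of Fcer2a or Cr2 stand for 2 of 35 and 3 of 43 cells. Taken alone, Cr2 did not overlap between groups either. Fcer2a alone overlapped between WT and IACS-70654 (10.9% ± 2.20 and 13.7% ± 2.00).

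Cd93, the receptor that marks transitional and immature B cells, was found in 10.4% and 9.33% of WT cells, 11.4% and 14.0% of vehicle cells, and 3.03% and 0% of IACS-70654 cells. The last value is 0 of 73 cells, where 3 cells would be 4.11%, and limits only the share of cells with a UMI at this depth. A UMI of Rag1 or Rag2, the recombinase genes, was found in 7.23% and 6.22% of WT cells, 14.3% and 18.6% of vehicle cells, and 3.03% and 2.74% of IACS-70654 cells. The 3 groups did not overlap for either measure. Ms4a1, which encodes CD20, was detected in 38.6% and 41.8%, 28.6% and 25.6%, and 60.6% and 42.5% of cells in the same order of groups. Each pair without overlap again gave p = 0.333 (exact 2-sided permutation test, adjusted p = 0.447 over 51 comparisons). In cells without Cd79a or Cd79b, thinned in the same way, Cd93 was found in 0.47% to 0.83%, Ms4a1 in 0.02% to 0.09% and Vpreb3 in 0.24% to 0.47%, below every member value except Cd93 at 0 in IACS-70654 replicate 2.

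Without thinning, the same orders held for these receptors and for Vpreb3. Vpreb3 was detected in 70.0% and 71.6% of WT, 88.6% and 90.7% of vehicle, and 48.5% and 42.5% of IACS-70654 member cells. Fcer2a or Cr2 was detected in 40.4% and 40.4%, 11.4% and 14.0%, and 66.7% and 58.9%. Cd93 was detected in 28.8% and 26.2%, 34.3% and 39.5%, and 3.03% and 8.22%. Expressed as a share of all kept cells, members with Fcer2a or Cr2 were 2.21% and 2.07% in WT, 0.0782% and 0.0986% in vehicle, and 0.452% and 0.699% under IACS-70654, so the cells with a mature receptor were more frequent in both IACS-70654 libraries than in both vehicle libraries, although the member cells as a whole were not.

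The number of Ighd UMIs, which the rule used, moved with these features. Among member cells with exactly 1 Ighd UMI, Fcer2a or Cr2 was detected (unthinned) in 23.1% and 20.0% in WT, 15.4% and 4.0% in vehicle, and 42.9% and 31.6% under IACS-70654. Among those with 2 or more, the values were 59.2% and 63.8%, 0% and 27.8%, and 73.1% and 68.5%. Vehicle was lowest and IACS-70654 highest within both classes, although the vehicle classes with 2 or more hold only 9 and 18 cells. The IACS-70654 classes with 1 Ighd UMI hold only 7 and 19. Depth differed in that class, with medians of 3016.5 and 3173 UMIs in WT, 4023.5 and 3191 in vehicle, and 5812 and 4741 under IACS-70654. With 2 or more they were 3267.5 and 3050, 3191 and 2986.5, and 4269 and 3610. The part of depth in this order was not tested. The immature markers did not separate vehicle from WT among cells with 1 Ighd UMI. There, Vpreb1, Vpreb3 or Igll1 was detected in 86.2% and 89.2% in WT, 88.5% and 92.0% in vehicle, and 57.1% and 57.9% under IACS-70654, and Cd93 in 37.7% and 40.8%, 26.9% and 48.0%, and 0% and 21.1%. Among cells with 2 or more, the surrogate light chain genes were detected in 52.5% and 52.4%, 88.9% and 88.9%, and 50% and 37.0%, and Cd93 in 19.2% and 9.52%, 55.6% and 27.8%, and 3.85% and 3.70%. The part of the Ighd level in the differences between groups was not tested.

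A UMI of Mki67, a proliferation antigen, or Top2a, the topoisomerase of dividing cells, was found at 1000 UMIs in 14.5% and 10.2% of WT, 28.6% and 18.6% of vehicle, and 6.06% and 13.7% of IACS-70654 member cells. Vehicle lay above both other groups, and the WT and IACS-70654 libraries overlapped. In cells without Cd79a or Cd79b the share was 12.4% to 13.4%. These cells include dividing precursors of other lineages, so this share is not a background level. Whether a member cell with a single UMI of these genes was in cycle was not tested. No cell of the WT or IACS-70654 libraries, and 1 of the 78 vehicle cells, had both Cd93 and a mature receptor at this depth. Lambda exceeded kappa light chain UMIs in 19.3% and 17.7% of WT, 17.6% and 30% of vehicle, and 19% and 10.4% of IACS-70654 cells with at least 5 light chain UMIs, with overlap between all groups. Without thinning, IACS-70654 lay below WT without overlap (means 9.48% ± 0.74 and 16.7% ± 1.35). Vehicle, at 12.6% ± 8.96, overlapped with both.

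**Figure D2:**
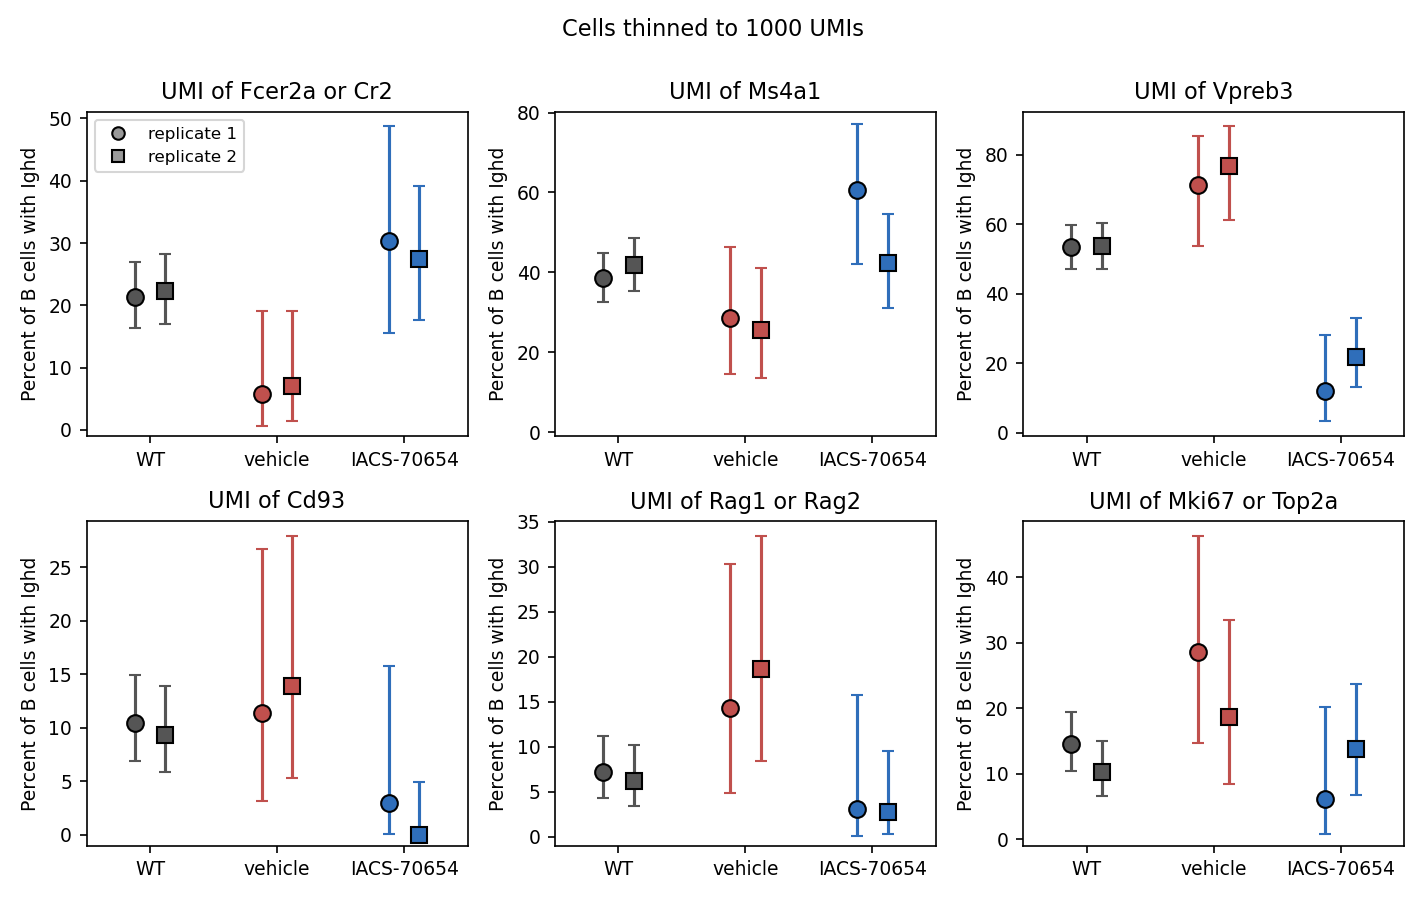
Percent of B cells with Ighd in which a feature was detected after each cell was thinned to 1000 UMIs, by library. Each point is 1 library, with its 95% exact binomial interval. Vpreb3 is highest in vehicle (71.4% and 76.7%) and lowest under IACS-70654 (12.1% and 21.9%), and Fcer2a or Cr2 runs in the opposite order.

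Expression across all genes was compared on UMIs summed over the member cells of each library, with edgeR's quasi-likelihood test over 5938 genes. Calls required a Benjamini-Hochberg adjusted p below 0.01 together with an absolute log2 change above 0.5, and levels below are CPM scaled by TMM, the trimmed mean normalization of edgeR. In member cells of vehicle mice against WT, 20 genes were called (0.337% of those tested), 7 higher (0.118%) and 13 lower (0.219%). The gene lists named from here on were chosen with earlier results of these data known, so their counts and medians are description only. Of the genes that fell, 4 were of the MHC class II list and 3 of the mature follicular list. Of the 7 that rose, 4 were histone genes, for which no list was tested. The count depended on the libraries, with 74 calls without WT replicate 1, 33 without WT replicate 2, 5 without vehicle replicate 1, 13 without vehicle replicate 2, and 109 and 112 without IACS-70654 replicate 1 or 2. It was 0 when cells with Mki67 or Top2a were left out (370 genes at an unadjusted p under 0.05), and 7 without the 14 member cells marked as doublets by Scrublet, all of WT replicate 1.

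Of the 13 tested MHC class II genes, 4 fell in vehicle and none rose, with a median log2 change of -1.30 over the list against -0.01 over all tested genes. Cd74 (ENSMUSG00000024610), the invariant chain that escorts class II proteins, had 2543 and 2699 CPM in WT and 855 and 1346 in vehicle, a log2 change of -1.24 ± 0.19 (SE, adjusted p = 0.00384). H2-Eb1, a class II beta chain, had 754 and 756 CPM in WT and 126 and 306 in vehicle (log2 change -1.75 ± 0.26, adjusted p = 0.00369). H2-Aa and H2-Ab1, the alpha and beta chains of the other class II pair, both changed by -1.51 (adjusted p = 0.00838 and 0.00445). For all 4 genes both vehicle libraries lay below both WT libraries, which is description only, since the genes were picked as called. Without vehicle replicate 1 the log2 changes of the 4 genes were -0.97 to -1.32 and none was called, and without cells with Mki67 or Top2a they were -0.81 to -1.37 and none was called. None was called without the doublets of Scrublet either (adjusted p 0.0117 to 0.0264), with the list median at -1.28, and the call on H2-Aa was lost without cells with basophil or monocyte markers (adjusted p = 0.015).

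Among 18 mature follicular B cell genes, Gpr183, Cr2 and Bank1 fell and none rose, and the median of the list was -0.76. Gpr183, the receptor that guides B cells by oxysterols, had 124 and 177 CPM in WT against 6.29 and 4.43 in vehicle (log2 change -4.78 ± 0.62, adjusted p = 0.00112), which stands for UMIs in 119 WT cells and 2 vehicle cells. Cr2 (ENSMUSG00000026616) had 93.6 and 114 CPM in WT against 6.29 and 13.3 in vehicle (-3.29 ± 0.49, adjusted p = 0.00379), with UMIs in 116 and 4 cells. Bank1, a scaffold of B cell receptor signalling, had 1251 and 1346 CPM in WT against 270.3 and 465 in vehicle (-1.79 ± 0.22, adjusted p = 0.000807). Neither library of vehicle reached either WT library for any of the 3, which the rule for the largest changes required of them. The calls on Gpr183 and Cr2 were lost without either vehicle library (adjusted p 0.0127 to 0.0334), and all 3 were lost without cells with Mki67 or Top2a (-4.14, -2.75 and -1.41, adjusted p 0.0156 to 0.0398). The list had 1 call without vehicle replicate 1 or 2, and 5 and 6 without IACS-70654 replicate 1 or 2.

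Other genes called lower were Apoe, a lipid carrier, at 142 and 233 CPM in WT and 12.6 and 35.4 in vehicle (log2 change -2.84 ± 0.45, adjusted p = 0.00463), and Rapgef4, an exchange factor for the GTPase Rap, at 224 and 236 and at 25.1 and 53.1 CPM (-2.47 ± 0.31, adjusted p = 0.00101). The noncoding or unnamed genes Gm47782, Gm20513 and Gm31243 fell by 5.30, 2.41 and 2.09 on the log2 scale. Gm47782 had 1 and 0 UMIs in the vehicle libraries, so the size of its fall is uncertain, as is that of Gpr183 with 1 UMI in each. Setbp1, a SET-binding nuclear protein, completed the 13 with a change of -1.51. The calls on these 6 genes were lost without vehicle replicate 1 (adjusted p 0.0115 to 0.056), and all but that on Rapgef4 without vehicle replicate 2 (adjusted p 0.0252 to 0.0773) and without the doublets of Scrublet (adjusted p 0.0112 to 0.0198). That on Setbp1 was also lost without cells with basophil or monocyte markers (adjusted p = 0.0198).

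The 7 genes that rose in vehicle included 4 histone genes. With replicate number as a block only 5 genes were called higher, so the 7 did not all keep their calls. Hist1h1b, a linker histone made as cells copy their DNA, had 288 and 259.9 CPM in WT and 880.0 and 810.5 in vehicle (log2 change 1.62 ± 0.18, adjusted p = 0.000646). Hist1h2ap rose by 1.43 ± 0.17, Hist1h2ae by 1.63 ± 0.24 and Hist1h1e by 1.16 ± 0.18. The other 3 were 2610307P16Rik, with 171 and 185 CPM in WT and 566 and 558 in vehicle (1.66 ± 0.18, adjusted p = 0.000581), the galectin gene Lgals9 (1.20 ± 0.20, adjusted p = 0.00838) and the centromere gene Cenpp (1.45 ± 0.24, adjusted p = 0.00786). Hist1h1b and 2610307P16Rik kept their calls without any 1 library, Hist1h2ap and Hist1h2ae lost theirs without vehicle replicate 1 (adjusted p = 0.0115 and 0.0251), and Hist1h1e, Lgals9 and Cenpp without either vehicle library and without 1 WT library. The last 3 and Hist1h2ae also lost theirs without the doublets of Scrublet (adjusted p 0.0173 to 0.0363). When the 29 member cells with 3 or more basophil or monocyte UMIs were left out, 2610307P16Rik was the 1 gene still called higher, and the changes of the other 6 were 1.09 to 1.60 (adjusted p 0.0113 to 0.0592). No gene of the cell cycle list was called, by edgeR or by DESeq2. Yet 24 of its 26 tested genes had a positive change and its median was 0.65. At an unadjusted p under 0.05 were 16 of them, beside 784 of all 5938 tested genes. The count of 0 depended on the libraries, with 9 genes called higher without IACS-70654 replicate 1, 9 without IACS-70654 replicate 2, 4 without WT replicate 1 and 4 without the low-count filter. The share of cells with Mki67 or Top2a was higher in both vehicle libraries, and its part in the histone values was not tested. Without those cells Hist1h1e had a change of 0.44 (edgeR, adjusted p = 0.722) and 2610307P16Rik one of 1.80 (adjusted p = 0.0259). Only 16 of the 20 called genes were tested in that setting, and values of the other histone genes in it are not given here.

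All 18 tested genes of immature and precursor B cells had a positive change in vehicle, with a median of 0.76, but edgeR called none of them (14 at an unadjusted p under 0.05, none by DESeq2). Of all 5938 tested genes, 784 had an unadjusted p under 0.05. Without IACS-70654 replicate 1 or 2, 5 genes of the list were called higher, and 3 without WT replicate 1 and 4 without the low-count filter. Vpreb3 (ENSMUSG00000000903) had 1341 and 1277 CPM in WT and 2219 and 1962 in vehicle (log2 change 0.67 ± 0.15, adjusted p = 0.0371). Cd93 had 112 and 113 CPM in WT and 145 and 177 in vehicle (0.54 ± 0.27, adjusted p = 0.412). For both genes the vehicle libraries lay above WT, and the changes exceeded 0.5 but the adjusted p missed 0.01.

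In member cells under IACS-70654 against vehicle, 216 genes were called (3.64% of 5938), 99 higher (1.67%) and 117 lower (1.97%). Called higher were 7 of 13 MHC class II and 6 of 18 mature follicular genes, and called lower were 9 of 18 immature and precursor genes, 9 of 26 cell cycle genes and 1 mature follicular gene. This comparison and the preceding one share the vehicle libraries, so a gene chosen for its change in vehicle tends to the opposite sign here, and the values of the 2 are not independent. Leaving out WT replicate 1 or 2 gave 397 and 393 calls, vehicle replicate 1 or 2 gave 132 and 105, and IACS-70654 replicate 1 or 2 gave 268 and 285. Without cells with Mki67 or Top2a, 54 genes were called, on fewer cells (20 and 30 in the vehicle libraries) and 3726 tested genes. The member cells marked as doublets by Scrublet were all of WT replicate 1, so leaving them out removed no vehicle or IACS-70654 cell. It acts on this comparison only through the fit that all libraries share. Without the doublets of Scrublet 144 were called, and of the genes named for this comparison H2-DMb1, Ctss, Cxcr5, Klf3, Cd86, Il6ra, Ier2, Ier5, Txnip, Apoe, Fn1, Pid1, S100a4, Plcb1, Slc24a3, Anxa2, Prtn3 and Zfpm1 lost their calls (adjusted p 0.0106 to 0.0468). Of the 216 genes, 39 were called under every setting in which they were tested, of 16 settings with the one reported included. Not all were tested in all 16, and Pclaf was not tested without cells with Mki67 or Top2a. Among the 39 were Vpreb3, Cd93, Cecr2, Chchd10, Cr2, Bank1, H2-Ab1, H2-Eb1, Pclaf, Zeb2 and Agbl1.

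MHC class II genes showed the broadest rise. Of 13 tested, 7 rose and none fell, and the median log2 change was 1.66 against 0.01 over all tested genes. Without vehicle replicate 2 there were 4 calls (median 2.15), and without cells with Mki67 or Top2a 2 of 12 tested genes rose and 1 fell (median 1.25). Without the doublets of Scrublet 5 were called, and 6 by DESeq2 and with the replicate block. The promoters of 4 that rose are shown because they share a short element, an inverted CCAAT box (GATTGG on the strand of the gene), which is known as the Y box of class II promoters and is bound by the factor NF-Y. Each line gives the 120 bases before the transcription start, from RefSeq on GRCm38.p6, 5′ to 3′ on the gene's strand, with GATTGG in capitals.
H2-Aa: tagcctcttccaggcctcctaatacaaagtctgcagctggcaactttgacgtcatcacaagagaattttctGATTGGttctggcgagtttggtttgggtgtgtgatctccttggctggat
H2-Eb1: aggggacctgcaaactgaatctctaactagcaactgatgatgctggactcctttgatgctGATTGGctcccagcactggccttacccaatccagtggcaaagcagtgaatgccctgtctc
H2-DMb1: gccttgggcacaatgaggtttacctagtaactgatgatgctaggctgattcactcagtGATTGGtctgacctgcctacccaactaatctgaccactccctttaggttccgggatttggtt
H2-DMb2: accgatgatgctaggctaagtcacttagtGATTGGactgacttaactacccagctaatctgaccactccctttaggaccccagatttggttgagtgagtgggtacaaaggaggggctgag

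The windows lie on chromosome 17, at chr17:34287824-34287943 on the minus strand for H2-Aa, and on the plus strand at chr17:34305747-34305866 for H2-Eb1, chr17:34153071-34153190 for H2-DMb1 and chr17:34145129-34145248 for H2-DMb2. GATTGG begins 49, 60, 62 and 91 bases before the start, in that order. Searched on both strands in the same 120-base window, it was present in 8 of the 13 windows of class II list genes in the table (61.5%, 12 of 16 genes matched) and in 3178 of all 32851 windows (9.67%). The match is a description of sequence and says nothing on binding in these cells. H2-Ab1 and Cd74 are not in the table.

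Cd74 had 855 and 1346 CPM in vehicle and 3293 and 2942 under IACS-70654, beside 2543 and 2699 in WT (log2 change against vehicle 1.49 ± 0.19, adjusted p = 0.000221). It was detected in 40 of 78 vehicle cells and 96 of 106 IACS-70654 cells. H2-Eb1 had 126 and 306 CPM in vehicle and 953 and 952 under IACS-70654 (2.08 ± 0.26, adjusted p = 0.000221), and H2-Ab1 had 169.7 and 341 and then 969 and 842 (1.78 ± 0.24, adjusted p = 0.00032). H2-Aa had 264 and 638 CPM and then 1403 and 1531 (1.66 ± 0.26, adjusted p = 0.000952). The IACS-70654 libraries lay above both vehicle libraries for all 4 genes and above both WT libraries as well. The separation from vehicle is description only, since the 4 genes were picked as called.

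The chaperones that load peptide onto class II moved with them. H2-DMb2 had 31.4 and 57.6 CPM in vehicle and 148 and 188 under IACS-70654 (log2 change 1.88 ± 0.34, adjusted p = 0.0029), and H2-DMb1 had 6.29 and 13.3 and then 74.1 and 67.8 (2.73 ± 0.59, adjusted p = 0.0092). Ctss, the protease cathepsin S that trims the invariant chain, had 101 and 39.9 CPM and then 228 and 211 (1.72 ± 0.34, adjusted p = 0.00495). H2-DMa missed the threshold (1.47 ± 0.32, adjusted p = 0.0101), as did the thiol reductase gene Ifi30, with 786 and 602 CPM in vehicle and 487 and 339 under IACS-70654 (-0.77 ± 0.22, adjusted p = 0.0401). H2-Ab1 and H2-Eb1 stayed called without cells with Mki67 or Top2a (1.67 and 1.69), whereas H2-Aa (1.34, adjusted p = 0.0201) and Cd74 (1.05, adjusted p = 0.0101) did not. The calls on H2-DMb1 and H2-DMb2 were lost without either vehicle library and without IACS-70654 replicate 2 (adjusted p 0.0103 to 0.055), and that on Ctss without vehicle replicate 2 (adjusted p = 0.0892).

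Against WT, the same genes under IACS-70654 gave no call. Cd74 differed by 0.25 ± 0.18 (adjusted p = 0.568), H2-Eb1 by 0.33 ± 0.22 (adjusted p = 0.525) and H2-DMb1 by 1.10 ± 0.32 (adjusted p = 0.0906). The list had 0 calls of 13 by edgeR and by DESeq2 and 3 genes at an unadjusted p under 0.05, with a median of 0.25, and 1 gene was called lower without WT replicate 1, without IACS-70654 replicate 1, without the low-count filter and on thinned cells. Of all 5938 tested genes, 864 had an unadjusted p under 0.05 against WT. With at least 2 Ighd UMIs the class II list median was -0.16. MHC class I genes, by contrast, gave 0 calls of 19 for IACS-70654 against vehicle (edgeR and DESeq2, 4 at an unadjusted p under 0.05), with a median of 0.02. In that comparison 1411 of all 5938 tested genes had an unadjusted p under 0.05. B2m, the light chain of class I, had 1157 and 1227 CPM in vehicle and 1143 and 1234 under IACS-70654, and H2-D1 had 1182 and 1081 and then 1143 and 1153.

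Of 18 mature follicular B cell genes, 6 rose under IACS-70654 against vehicle, 1 fell, and the median was 0.97. Without vehicle replicate 1, and without cells with Mki67 or Top2a, 2 rose, and by DESeq2 3 did. Cr2 had 6.29 and 13.3 CPM in vehicle and 175 and 133 under IACS-70654, above 93.6 and 114 in WT (log2 change against vehicle 3.81 ± 0.49, adjusted p = 0.000249), with UMIs in 38 of 106 cells. Gpr183 had 6.29 and 4.43 CPM and then 47.6 and 99.1, which stayed below both WT values (3.88 ± 0.75, adjusted p = 0.00433). Cxcr5, the receptor that draws B cells into follicles, had 6.29 and 13.3 CPM and then 79.4 and 62.6 (2.70 ± 0.59, adjusted p = 0.0095). Bank1 had 270.3 and 465 CPM and then 2075 and 1646 (2.30 ± 0.22, adjusted p = 2.58e-05). Each vehicle library lay below each IACS-70654 library for these genes, which were picked as called. Cd55, a complement regulator, and the chromatin organizer Satb1 were also called higher, and the Fc receptor-like gene Fcrla lower. The calls on Gpr183 and Cxcr5 were lost without either vehicle library (adjusted p 0.0272 to 0.0654), that on Gpr183 also without IACS-70654 replicate 2 (adjusted p = 0.0276), and Cr2 and Bank1 kept theirs without cells with Mki67 or Top2a (3.25 and 1.91). Ms4a1 did not pass, with 409 and 354 CPM in vehicle and 609 and 467 under IACS-70654 (0.48 ± 0.22, adjusted p = 0.196).

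The immature and precursor list, which was chosen with earlier results of these data known, moved down. Of 18 tested genes 9 were called lower and none higher, no change among the 18 was positive and the median was -1.72. Vpreb3 had 2219 and 1962 CPM in vehicle and 302 and 344 under IACS-70654, against 1341 and 1277 in WT. It fell by 2.68 ± 0.17 on the log2 scale against vehicle (adjusted p = 4.95e-07), the smallest adjusted p of those printed here, and had UMIs in 70 of 78 vehicle cells and 47 of 106 IACS-70654 cells. Cd93 (ENSMUSG00000027435) had 145 and 177 CPM and then 5.29 and 28.7 (-2.96 ± 0.42, adjusted p = 0.000438). Both genes lay below WT and vehicle in both IACS-70654 libraries, and the rule for the largest decreases, which they met, required the latter.

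Cecr2, a bromodomain protein of chromatin remodelling, had 1157 and 1085 CPM in vehicle and 95.3 and 318 under IACS-70654 (log2 change -2.31 ± 0.31, adjusted p = 0.000311). Akap12, a scaffold for kinase A, had 245 and 567 CPM and then 52.9 and 99.1 (-2.35 ± 0.36, adjusted p = 0.000827), a call lost without vehicle replicate 2 (-1.55, adjusted p = 0.0265). Chchd10, a mitochondrial protein, fell by 1.70 ± 0.19 (adjusted p = 9.27e-05). The remaining calls of the list were on Tifa, the progenitor factor Myb, the surface glycoprotein gene Cd24a and Il7r, the receptor of the precursor cytokine IL-7. Without cells with Mki67 or Top2a, 9 of 16 tested genes of the list were still called lower (median -1.86), with Vpreb3 at -2.62, Cd93 at -3.48 and Cecr2 at -2.71. Vpreb1, the surrogate light chain gene of precursors, was not called (358 and 434 CPM in vehicle, 318 and 102 under IACS-70654, adjusted p = 0.0931).

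Cell cycle genes were lower too, with 9 of 26 called, none higher and a median of -0.94. Mki67 had 402 and 717 CPM in vehicle and 180.0 and 198 under IACS-70654 (log2 change -1.58 ± 0.27, adjusted p = 0.002), Rrm2, a subunit of the reductase that makes DNA precursors, 233 and 208 and then 21.2 and 70.4 (-2.05 ± 0.35, adjusted p = 0.002), and Pclaf, a partner of PCNA, 811 and 633 and then 249 and 193 (-1.73 ± 0.24, adjusted p = 0.000331). Stmn1, Hmgb2, Cdkn2d, Top2a, Birc5 and Tubb5 were the other calls. The calls on Mki67 (-1.05, adjusted p = 0.0525) and Birc5 (-1.45, adjusted p = 0.0233) were lost without vehicle replicate 2, where 3 genes of the list were still called, and that on Rrm2 without either vehicle library (adjusted p = 0.0129 and 0.012). The histone genes described for vehicle, whose libraries are shared, were called lower as well, Hist1h1b by 1.63 ± 0.20, Hist1h2ap by 1.62 ± 0.19, Hist1h2ae by 1.92 ± 0.26 and Hist1h1e by 1.39 ± 0.20. Against WT, no cell cycle gene was called by edgeR or DESeq2 (9 of 26 at an unadjusted p under 0.05, median -0.41), while 1 was called lower without WT replicate 2, 2 lower without the low-count filter and 1 higher on thinned cells. Of all 5938 tested genes, 864 had an unadjusted p under 0.05 against WT. The cell cycle list median turned positive on thinned cells (0.82) and with at least 2 Ighd UMIs (0.11). Leaving out cells with Mki67 or Top2a, which are genes of this list, left 9 tested genes with no call and a median of -0.63.

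**Figure D3:**
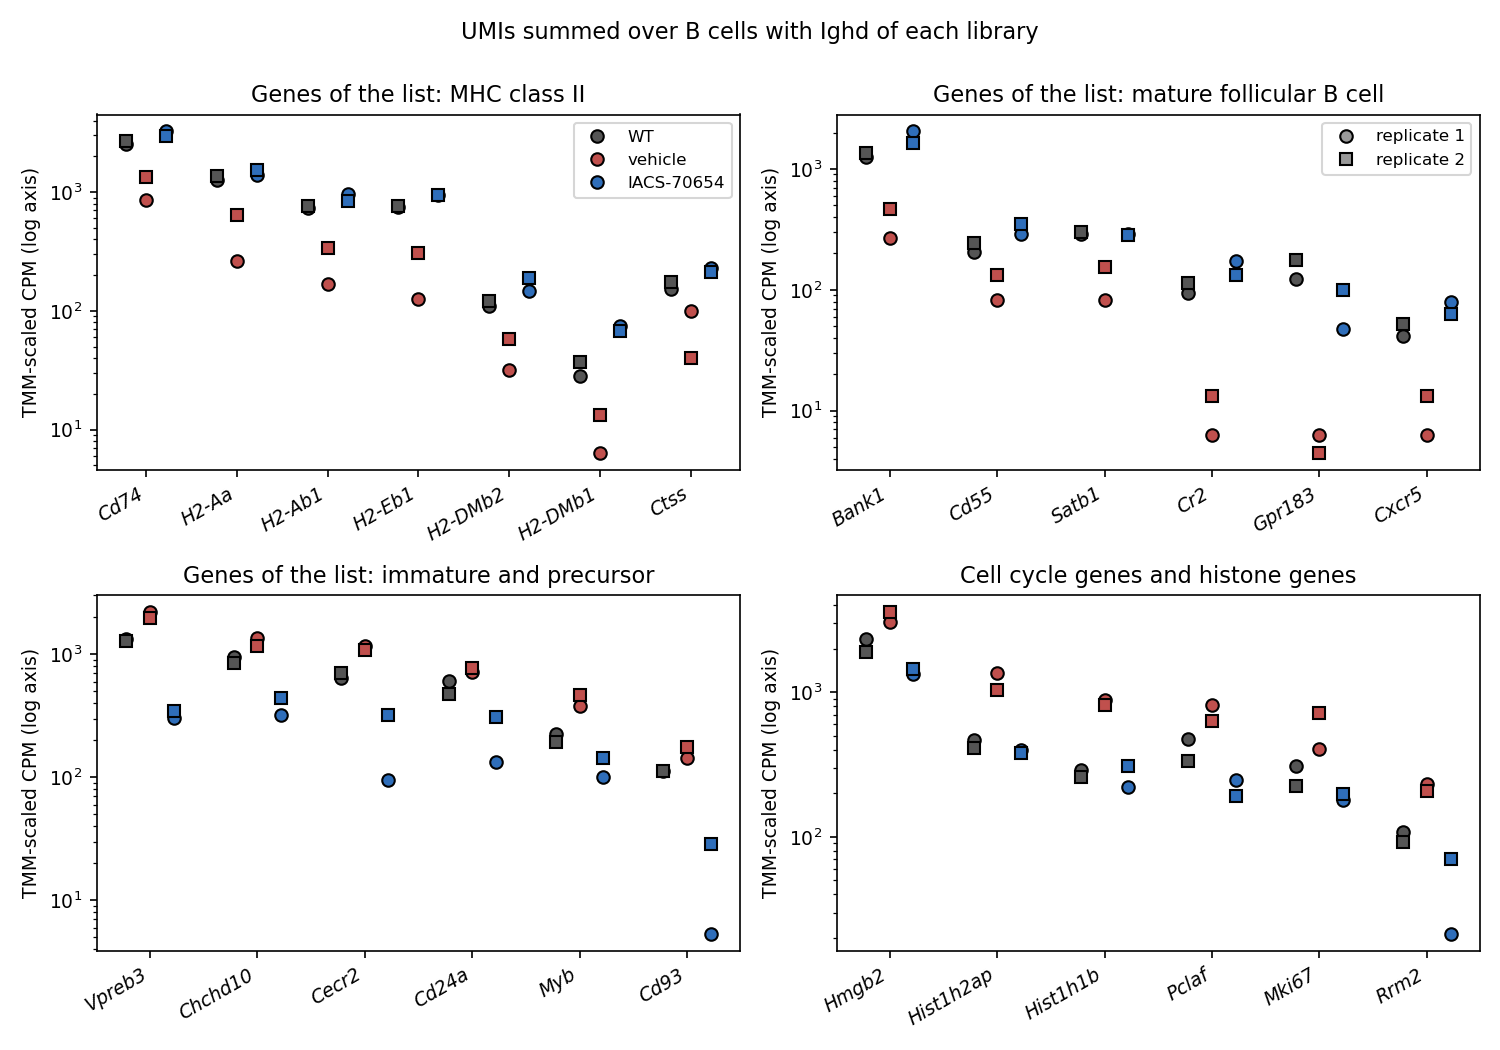
TMM-scaled CPM (log axis) of genes of the MHC class II, mature follicular, immature and precursor lists, and of cell cycle and histone genes, summed over B cells with Ighd. Each point is a library, colored by group and shaped by replicate. The 7 class II and 6 mature genes plotted, which are the ones called higher under IACS-70654, are lowest in both vehicle libraries, as for Cr2 at 6.29 and 13.3 CPM, and Vpreb3 is highest in vehicle and lowest under IACS-70654.

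Of 34 transcription factor genes of B cells, 1 was higher and 3 lower against vehicle, beside 3.64% called over all tested genes, and the median was -0.10. Bach2, a repressor that holds B cells from plasma cell fate, had 2891 and 3366 CPM in vehicle and 1403 and 1377 under IACS-70654, below 2539 and 2587 in WT (log2 change against vehicle -1.17 ± 0.15, adjusted p = 0.000221, and against WT -0.88 ± 0.14, adjusted p = 0.00385). Tcf3, which encodes the E proteins of early B cell development, had 283 and 288 CPM and then 37.1 and 112 (-1.76 ± 0.32, adjusted p = 0.0029), a call lost without either vehicle library (adjusted p = 0.0152 and 0.0267), and Zeb2, a zinc finger repressor, 1414 and 1076 and then 539.9 and 469 (-1.31 ± 0.18, adjusted p = 0.000438). Klf3 had 37.7 and 4.43 CPM and then 84.7 and 123 (2.55 ± 0.55, adjusted p = 0.00887), a call lost without vehicle replicate 2 (adjusted p = 0.131). Ebf1, a founding factor of the lineage, had 5927 and 6674 CPM in vehicle and 4304 and 3847 under IACS-70654 and missed the threshold (-0.63 ± 0.14, adjusted p = 0.0105). Foxp1 and Pax5 were not called (0.04 ± 0.16 and -0.11 ± 0.22).

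Of the receptor and signalling lists, Ighm fell and the others moved in few genes. Ighm, the IgM constant gene, had 2898 and 2909.8 CPM in vehicle and 1726 and 1679.7 under IACS-70654, beside 2686 and 2703 in WT (log2 change against vehicle -0.77 ± 0.14, adjusted p = 0.0029). This gene shares its primary transcript with Ighd, which chose the cells, and its call was lost without cells with basophil or monocyte markers (-0.50, adjusted p = 0.0543) and without cells with Mki67 or Top2a (-0.79, adjusted p = 0.0305). Igkc, the kappa constant gene, differed by 0.05 ± 0.15. Ptprc, which encodes CD45, had 629 and 487 CPM and then 1207 and 1139.8 (1.08 ± 0.17, adjusted p = 0.00121), and Rasgrp3, an activator of Ras downstream of the receptor, 44.0 and 48.7 and then 159 and 164 (1.79 ± 0.32, adjusted p = 0.00244). These were the 2 calls among 25 receptor signalling genes (median 0.30), beside 3.64% called over all tested genes. Cd72, an inhibitory co-receptor, had 339 and 257 CPM and then 106 and 75.6 (-1.76 ± 0.28, adjusted p = 0.001), and was the call among 13 inhibitory genes. The calls on Ptprc and Rasgrp3 were lost without vehicle replicate 2 (adjusted p = 0.0127 and 0.0269), that on Rasgrp3 also without vehicle replicate 1 (adjusted p = 0.0191), and that on Cd72 without vehicle replicate 1 (-1.56, adjusted p = 0.0102).

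Other lists held 1 to 3 calls each, beside the same 3.64% over all tested genes. These were 2 of 15 costimulation and cytokine receptor genes, 1 higher and 1 lower of 13 survival genes, 2 of 6 marginal zone genes, 2 of 20 immediate early genes, 2 of 20 homing genes, 3 of 6 B-1 and memory genes (none without vehicle replicate 2 or without cells with basophil or monocyte markers), 1 of 20 metabolism genes and 1 of 7 nuclear noncoding RNAs. Lists of 6 or 7 genes are too short to set against that share. Some calls recur between lists. The 2 homing genes, Gpr183 and Cxcr5, are also among the mature follicular calls, and the survival gene called lower, Birc5, is also among the cell cycle calls. Cd86, a ligand of CD28 on T cells, had 0 and 17.7 CPM in vehicle and 58.2 and 96.5 under IACS-70654 (adjusted p = 0.00952), and Il6ra 12.6 and 0 and then 79.4 and 60.0 (adjusted p = 0.0095). Both calls were lost without vehicle replicate 2 (adjusted p = 0.0122 and 0.115), and that on Cd86 without replicate 1 (adjusted p = 0.0527) and by DESeq2 (adjusted p = 0.0253), which gave no adjusted p for Il6ra. Bcl2, the survival factor, had 31.4 and 44.3 CPM and then 185 and 136 (log2 change 1.99 ± 0.36, adjusted p = 0.00283), a call lost without either vehicle library (adjusted p = 0.0243 and 0.0208), and Birc5, a survival and mitosis gene, fell by 1.62 ± 0.27. Notch2, the receptor needed for marginal zone B cells, had 62.9 and 53.1 CPM and then 191 and 185 (1.71 ± 0.30, adjusted p = 0.00222), again lost without either vehicle library (adjusted p = 0.0102 and 0.0375). Ier2 and Ier5, immediate early genes, rose by 1.31 ± 0.28 and 1.12 ± 0.24, and Txnip, a regulator of glucose uptake, by 1.14 ± 0.24, all 3 calls lost without either vehicle library and by DESeq2 (adjusted p 0.0234 to 0.0291). Lncpint, a nuclear noncoding RNA, had 12.6 and 53.1 CPM and then 302 and 248 (2.90 ± 0.38, adjusted p = 0.000262).

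A list of acetyltransferases, bromodomain proteins, deacetylases and their cofactors held 1 call against vehicle among 26 tested genes, beside 3.64% of all tested genes, with a median of -0.09. The list does not hold every gene of these kinds, and Cecr2 and Smarca4, bromodomain genes outside it, were called lower as well. Smarca4, singled out after its values were seen, changed by -2.27 ± 0.20 (adjusted p = 1.81e-05). Hdac8, a deacetylase, had 333 and 447 CPM in vehicle and 122 and 167 under IACS-70654 (log2 change -1.40 ± 0.23, adjusted p = 0.00158), a call lost without vehicle replicate 2 (-1.14, adjusted p = 0.0367). Crebbp, which encodes CBP, had 258 and 328 CPM and then 349 and 269 (0.03 ± 0.22, adjusted p = 0.948), with overlapping libraries.

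No gene was called against vehicle in 6 lists, by edgeR or by DESeq2. Other settings gave a call in 3 of them, 1 NF-kB target without IACS-70654 replicate 2 and 1 without the low-count filter, 1 interferon response gene without the filter and 1 without cells over 5% neutrophil UMIs, and 1 or 2 plasma cell genes under 5 settings. For interferon response genes the median was 0.29 over 19 genes (7 at an unadjusted p under 0.05), for NF-kB targets 0.14 over 13 (6), for plasma cell genes -0.51 over 6 (3), for ribosome biogenesis and Myc targets -0.09 over 16 (1), for stress genes 0.23 over 12 (0), and for MHC class I as given above. Over all 5938 tested genes, 1411 had an unadjusted p under 0.05. Ifi27l2a, an interferon-induced gene, had 559 and 496 CPM in vehicle and 371 and 485 under IACS-70654. Mzb1, a chaperone of immunoglobulin secretion, had 358 and 478 and then 254 and 282 CPM (adjusted p = 0.0649).

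**Figure D4:**
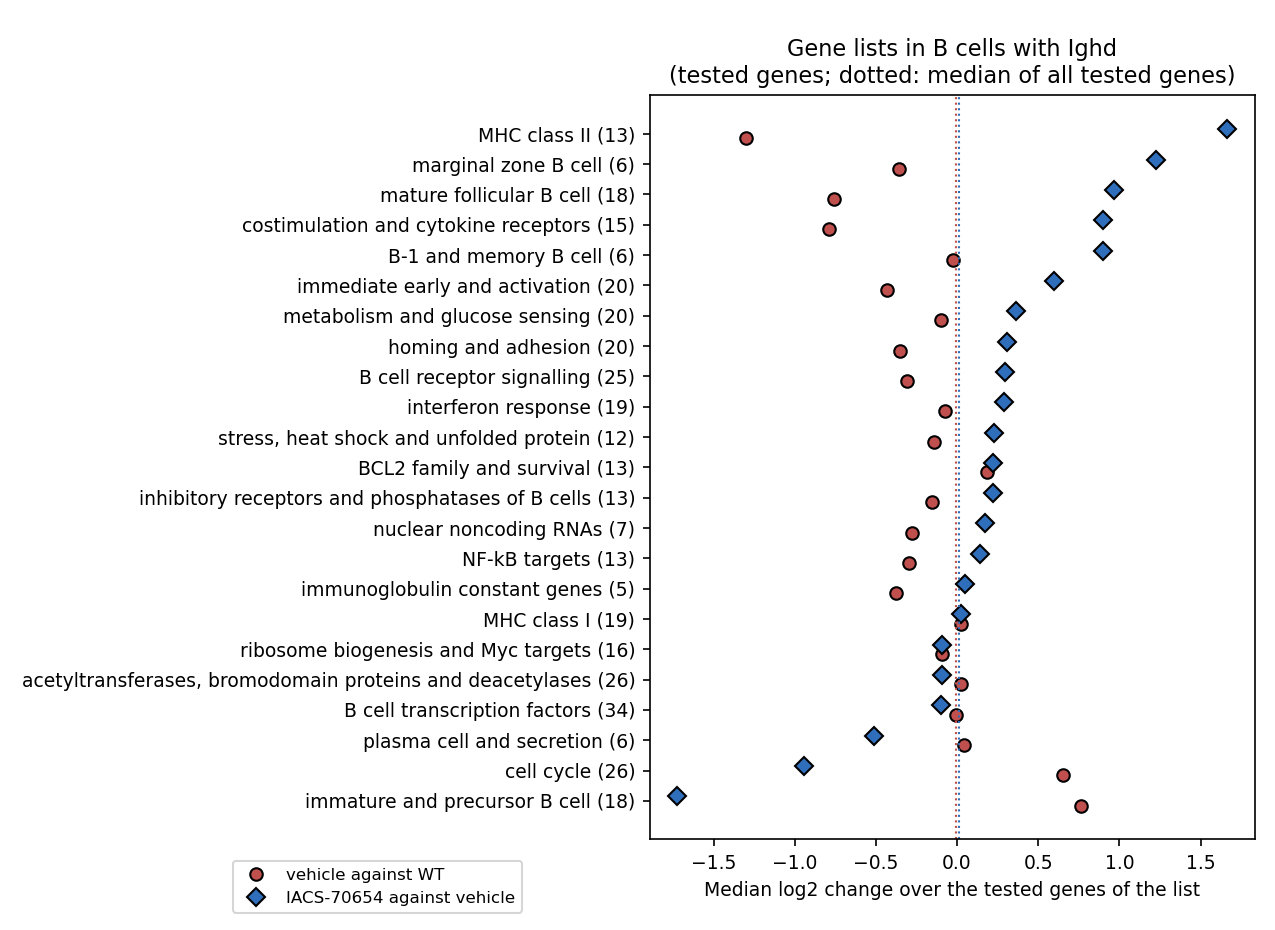
Median log2 change over the tested genes of each list in B cells with Ighd, for vehicle against WT and for IACS-70654 against vehicle, with the number of tested genes in brackets. Dotted lines are the medians over all tested genes (-0.01 and 0.01), and the 2 comparisons share the vehicle libraries. The MHC class II list stands at -1.30 and 1.66 and the immature and precursor list at 0.76 and -1.72. The lists were chosen with earlier results of these data known.

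The largest increases under IACS-70654 rested on few cells. Of the 10 genes with the largest rise by the naming rule, Cpa3, a mast cell and basophil protease, had 136 UMIs in 2 cells under IACS-70654 and 0 UMIs in vehicle, at least 24.6-fold higher against the floor of 3 UMIs over the vehicle group. Pid1 (54 UMIs in 8 cells), S100a4 (49 in 9), Chn2 (37 in 11) and Slc24a3 (35 in 3) were also without a UMI in vehicle, with lower bounds of 15.1-, 11.5-, 8.77- and 8.96-fold. Fn1, Ms4a6c, Plcb1 and Ahnak had UMIs in 7, 22, 9 and 26 IACS-70654 cells, and Gm47782 in 14. Without vehicle replicate 2 all 10 calls were lost (adjusted p 0.0127 to 0.0874). Basophil markers summed to 0 and 8.30 CPM in vehicle and 80.6 and 1611 CPM under IACS-70654, with 677 of the 682 basophil UMIs of replicate 2 in 1 cell. Monocyte markers summed to 78.3 and 78.9 CPM in vehicle and 1144 and 286 CPM under IACS-70654. When the 29 member cells with these UMIs named above were left out (4 and 7 of them IACS-70654 cells), 8 of the 10 genes no longer passed the low-count filter, Ahnak lost its call (2.84, adjusted p = 0.0327), and Gm47782 kept it (5.20). The same step took the log2 changes of Vim, Anxa2 and Plac8 from 1.00, 1.29 and 1.31 to 0.36, 1.06 and 0.56 and removed their calls (adjusted p 0.502, 0.145 and 0.138), as it did those on Cd86 (2.72, adjusted p = 0.0178) and Prtn3 (2.29, adjusted p = 0.034), and, among genes called lower, Ighm and Il12a (-2.57, adjusted p = 0.0127). In all, 220 genes were called after it, of which 167 were among the 216 called with these cells.

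The 10 largest decreases by the naming rule had UMIs in 16 to 70 of the 78 vehicle cells. Gm32569 had 69.1 and 62.0 CPM in vehicle (UMIs in 18 cells) and no UMI under IACS-70654, at least 12.5-fold lower. Agbl1, a tubulin-modifying peptidase, had 672 and 889 CPM in WT, 585 and 1009.8 in vehicle and 52.9 and 46.9 under IACS-70654 (log2 change against vehicle -4.03 ± 0.32, adjusted p = 4.76e-06), with UMIs in 30 of 78 vehicle and 6 of 106 IACS-70654 cells. Myl4, a myosin light chain, had 541 and 487 CPM in vehicle and then 21.2 and 70.4 (-3.28 ± 0.33, adjusted p = 3.56e-05). Also among the 10 were 4930597A21Rik (-3.42 ± 0.41), Arhgap11a (-3.20 ± 0.61), Tnfrsf19 (-3.20 ± 0.53), Cd93, Il12a (-2.83 ± 0.57), Zfpm1 (-2.80 ± 0.55) and Vpreb3. That every IACS-70654 library lay below every vehicle library for these genes was a condition of the naming rule. The calls on Arhgap11a, Tnfrsf19, Il12a and Zfpm1 were lost without 1 or either vehicle library (adjusted p 0.0136 to 0.0685), and those on Arhgap11a and Il12a also without IACS-70654 replicate 2 (adjusted p = 0.0103 and 0.0236).

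Against WT rather than vehicle, member cells under IACS-70654 had 55 called genes (0.926% of 5938), 20 higher (0.337%) and 35 lower (0.589%). The count was 74 and 109 without WT replicate 1 or 2, 69 and 82 without vehicle replicate 1 or 2, and 86 and 103 without IACS-70654 replicate 1 or 2. Immature and precursor genes made up 4 of the lower calls, of 18 tested with a median of -0.82. It had 8, 7 and 8 lower calls without IACS-70654 replicate 2, WT replicate 1 and WT replicate 2. Vpreb3 fell by 2.01 ± 0.17 on the log2 scale (adjusted p = 6.7e-06), Cd93 by 2.43 ± 0.38 (adjusted p = 0.00311), Cecr2 by 1.57 ± 0.30 (adjusted p = 0.00919) and Chchd10 by 1.21 ± 0.18 (adjusted p = 0.00242). Agbl1 fell by 3.98 ± 0.31 (adjusted p = 3.5e-06). It was called under every setting in which it was tested, of 18 run, the 1 gene of the 55 to be so. Myl4 fell by 2.61 ± 0.31, Bach2 by 0.88 ± 0.14, Cd72 by 1.58 ± 0.25 and Hdac8 by 1.13 ± 0.22. Requiring at least 2 Ighd UMIs per cell left 2 of the 55 calls, that on Agbl1 among them. The calls on Vpreb3 (-1.64, adjusted p = 0.0382), Cd93 (-2.36, adjusted p = 0.357), Cecr2 (-0.88, adjusted p = 0.657), Chchd10 (-0.77, adjusted p = 0.499), Myl4 (-1.72, adjusted p = 0.374), Bach2 (-0.56, adjusted p = 0.342), Cd72 and Hdac8 were lost under it. Without the doublets of Scrublet, those on Cecr2 (adjusted p = 0.0194) and Hdac8 (adjusted p = 0.0179) were lost. Without cells with basophil or monocyte markers 20 genes were called, 5 higher and 15 lower, and the calls on Chchd10, Bach2, Cd72 and Hdac8 were lost (adjusted p 0.0138 to 0.0438). Without cells with Mki67 or Top2a 27 were called, 5 higher and 22 lower, and those on Chchd10, Myl4, Bach2 and Hdac8 were lost (adjusted p 0.0123 to 0.0995). Without IACS-70654 replicate 2 the call on Cd72 was lost (adjusted p = 0.0169), without IACS-70654 replicate 1 that on Hdac8 (adjusted p = 0.0268), and without vehicle replicate 1 that on Cecr2 (adjusted p = 0.0111). Mature follicular genes had a median of -0.00 with 1 call, on Fcrla. Bank1, Cr2 and Gpr183 differed from WT by 0.51 ± 0.19, 0.53 ± 0.23 and -0.90 ± 0.29, none of them called (adjusted p 0.208, 0.311 and 0.147).

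The changes in B cells with Ighd were compared with those in the 1242 B-lineage cells of the same libraries that had no Ighd UMI, with library as a block and a test of the difference over 8630 genes. For vehicle against WT, 8 genes differed (0.0927%), 5 with a higher change in B cells with Ighd (0.0579%) and 3 with a lower one (0.0348%). The gene with the largest of the higher differences was Hist1h1b. It had 268 and 242 CPM in WT and 814 and 745 in vehicle among cells with Ighd, against 474 and 605 and then 320.0 and 445 among cells without, a difference of the log2 changes of 2.10 ± 0.33 (adjusted p = 0.00927). Hist1h2ap, Hist1h1e, 2610307P16Rik and the mitotic motor gene Kif11 differed by 1.86 ± 0.31, 1.63 ± 0.25, 1.60 ± 0.27 and 2.04 ± 0.34. The lower 3 were Prtn3 (-2.77 ± 0.44) and Ctsg (-3.95 ± 0.61), both granule proteases of myeloid precursors, and Ssr4 (-2.05 ± 0.34), a subunit of the translocon. Prtn3 had 222 and 248 CPM in WT and 1939 and 791 in vehicle among cells without Ighd, and 77.0 and 184 and then 116 and 77.3 among cells with it. No gene was called without either vehicle library, and 30 were called without WT replicate 1, 62 without IACS-70654 replicate 1 and 70 without IACS-70654 replicate 2.

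For IACS-70654 against vehicle, 1 gene differed between these classes (0.0116%). It was Ighm, which shares its primary transcript with Ighd, the gene that split the classes, so the difference is not independent of the rule. Ighm went from 2681 and 2674 to 1577 and 1538 CPM in cells with Ighd and from 3410 and 6484 to 413 and 542 CPM in cells without it, a difference of 2.53 ± 0.32 (adjusted p = 0.00193). The cells without Ighd under IACS-70654 are those with the high Prtn3 level given above, beside 281 and 736 CPM in cells with Ighd, and their part in the difference was not tested. The call was lost without vehicle replicate 2, when no gene was called, and 21, 25, 5 and 44 genes were called without WT replicate 1, WT replicate 2, IACS-70654 replicate 1 and IACS-70654 replicate 2. Vpreb3 fell in both classes with a difference of -0.58 ± 0.29 (adjusted p = 0.493), and Cr2 (5.65 ± 1.04, adjusted p = 0.028) and Cd93 (-1.51 ± 0.56, adjusted p = 0.308) did not pass.

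A wider comparison was made with 4466 kept cells that had at least 3 UMIs of Cd3d, Cd3e, Cd3g, Trac, Nkg7 or Klrb1c and none of Cd79a or Cd79b. These genes mark T and NK cells, but the median share of neutrophil markers in the cells was 24.2% to 40.2% of UMIs, so they are named by their rule alone. The IACS-70654 change differed for 1234 of 12347 genes (9.99%), 830 with a higher change in B cells with Ighd (6.72%) and 404 with a lower one (3.27%), or 715 genes without vehicle replicate 2 and 679 without IACS-70654 replicate 2. By p the leading genes were Prss34, Mcpt8 and Cpa3, all basophil proteases whose UMIs in IACS-70654 replicate 2 lay nearly all in the single cell described above, followed by Cd74 (3.98 ± 0.32) and Cd55 (3.61 ± 0.30). Cd74 went from 615 and 979 to 2369.9 and 2229 CPM in B cells with Ighd and from 29.1 and 9.78 to 2.20 and 4.12 CPM in the other cells.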

How the data were processed

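Single-cell libraries of sorted marrow were made by the authors with the 10x 3′ protocol and CellPlex multiplexing, and Cell Ranger 7.2.0 (per the file headers) with mm10 (per the labels) gave the deposited UMI counts per gene and cell. The study's own analysis used Seurat integration and tested over cells, which was not repeated. Here the counts were read with Python 3.11.15, numpy 2.4.6, scipy 1.17.1 and pandas 2.3.3, filtered as described above and summed over member cells of each library. Sums were tested with edgeR 4.0.16 (quasi-likelihood, limma 3.58.1, R 4.3.3) after filterByExpr and TMM, with all 6 libraries in 1 fit and Benjamini-Hochberg adjustment. Cd79a, Cd79b and Ighd stayed out of the tests. DESeq2 1.42.0 was an alternative. Shares were compared by exact permutation tests over libraries, and features after random thinning of each cell to 1000 UMIs. The procedure was tested on simulated data.

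Members and gene lists were chosen with earlier results of these data known. Named genes were the 10 largest called changes in each direction with non-overlapping libraries, at least 50 CPM in the higher group and a level outside the B lineage under 5 times that in member cells, up to 4 called and 2 uncalled genes per list, and up to 5 genes per difference between classes. Genes named without values are other called members of a list. Scrublet (scanpy 1.11.5) marked 1.62% of kept cells in WT replicate 1, including 14 members, and under 0.5% in the other 5 libraries, where it had not worked, so doublets were left in. Depth and intervals are given with the values, and a median of 3115 to 4285 UMIs per member cell leaves most genes undetected in most cells. Some items of the marker set and features are not reported here. Figures were drawn with matplotlib 3.10.9.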

Additional observations from a re-analysis of the deposited data

Results flagged for a closer look

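The results that differed between classes of cells by a test of the difference itself are given here as values, with no explanation. For vehicle against WT, the log2 change in B cells with Ighd minus that in B-lineage cells without Ighd was 2.10 for Hist1h1b, 1.86 for Hist1h2ap, 1.63 for Hist1h1e, 1.60 for 2610307P16Rik and 2.04 for Kif11, and it was -2.77 for Prtn3, -3.95 for Ctsg and -2.05 for Ssr4 (edgeR, adjusted p 0.00927 or 0.0094). For IACS-70654 against vehicle the same difference was 2.53 for Ighm, which shares its primary transcript with Ighd, the gene that split the classes. Against the cells with Cd3d, Cd3e, Cd3g, Trac, Nkg7 or Klrb1c, the IACS-70654 change differed for 1234 genes. No library was compared for distance from its group, since each group had 2 libraries.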

How the results depend on the processing

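Values are in the order vehicle against WT, IACS-70654 against vehicle and IACS-70654 against WT, where the counts of called genes were 20, 216 and 55. No low-count filter gave 115, 454 and 201, DESeq2 gave 24, 168 and 37, and DESeq2's size factors gave 20, 208 and 52. Leaving out Scrublet's doublets gave 7, 144 and 34, cells over 5% neutrophil UMIs 30, 328 and 87, and genes with over 5 times the level outside the B lineage 20, 214 and 52. In alternatives chosen after seeing the data, leaving out cells with Mki67 or Top2a gave 0, 54 and 27, and cells with basophil or monocyte markers 12, 220 and 20. Leaving out 1 library gave 5 to 112, 105 to 397 and 69 to 109, a lone library being assumed to vary like the other groups. At least 2 Ighd UMIs left 2 calls for IACS-70654 against WT, and the rule on thinned cells 52, of which 19 were among the 55. On thinned cells IACS-70654 replicate 1 was left out with 9 cells, so that fit rests on 1 IACS-70654 library. For the other 2 comparisons these settings were not run, since vehicle libraries kept 7 to 18 cells. The differences between classes gave 97, 61 and 1125 genes without the filter (8, 1 and 1234 otherwise) and 0 to 70, 0 to 44 and 679 to 1112 without 1 library.

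Replicate numbers are shared by the groups, but same-numbered libraries did not deviate together (correlation over genes -0.0514 to 0.00259). With a replicate block the counts were 20, 192 and 51, of which 17, 182 and 46 were called without it.

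Of the named called genes, Anxa2, Prtn3 and Ahnak changed direction, all for IACS-70654 against WT under the rule on thinned cells, where their log2 changes were -0.96, -0.30 and -0.00595 in place of 1.21, 2.06 and 1.91, with IACS-70654 replicate 2 alone against WT. The cause was not tested.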
